A study of Homo sapiens with 13 samples.

Results

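The genes described here are the human SOX, T-box, HAND, neural basic helix-loop-helix (bHLH), SALL, FEZF and ZIC transcription factors. They were taken by symbol from the protein-coding genes of RefSeq (GRCh38.p14): SOX and TBX genes with a number, NEUROG, NEUROD, ASCL, ATOH, HAND, OLIG, SALL, FEZF and ZIC. This gave 63 genes of 20037, in 11 families: 19 SOX, 13 T-box, 3 NEUROG, 4 NEUROD, 5 ASCL, 3 ATOH, 2 HAND, 3 OLIG, 4 SALL, 2 FEZF and 5 ZIC. The rule itself uses no measured value, but the genes were chosen with earlier results of these data known. The rule takes symbols, not tissues, so it also holds bHLH genes best known outside the nervous system, such as HAND1, HAND2 and ASCL2, and it leaves out relatives with other names, such as TBXT, EOMES and SRY.

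These proteins bind DNA and fix cell identity in the embryo. SOX proteins carry an HMG box and T-box proteins a T domain, the bHLH factors pair with E proteins on E-box motifs, and SALL, FEZF and ZIC proteins bind through zinc fingers. Most of the genes are silent in blood cells, and many have CpG-rich starts that Polycomb complexes hold in other tissues. DNMT1 is the methyltransferase that copies CpG methylation onto the new DNA strand after replication, UHRF1 is the protein that recruits it to half-methylated DNA, and the RFTS domain of DNMT1 takes part in that targeting and in autoinhibition.

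The study mapped GFP-tagged DNMT1 by anti-GFP ChIP-seq in MV4-11, an established human acute myeloid leukaemia line. In all 10 GFP-DNMT1 libraries the endogenous DNMT1 gene had been targeted with a guide RNA (gDNMT1) and a tagged DNMT1 was overexpressed from a stably introduced construct. The wild-type tag was used in the groups here called WT, NTC (which also carried a non-targeting guide, gNTC) and UHRF1KO (UHRF1 knocked out with a guide RNA), and a tag lacking the RFTS domain in RFTSdel. Each group was cultured for 7 days with DMSO or with 100 nM DNMT1i, the inhibitor GSK3685032. There was 1 library per treatment for WT, NTC and UHRF1KO and there were 2 for RFTSdel, whose labels do not say whether they are separate cultures. Untreated parental cells, with no GFP, gave 1 more library. By the sample labels WT, RFTSdel and the parental cells were batch 1, and NTC and UHRF1KO were batch 2, so UHRF1KO against NTC and RFTSdel against WT each lie within a batch, and any other comparison of lines crosses batches. A list of peaks cannot check the cell type, and whether the lines are clones is not given in the sources used here.

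Each library is a list of broad peaks with no read counts, so depth is unknown and the absence of a call does not show the absence of binding. After removal of peaks that overlapped a parental peak, the lists held 12245 to 32534 peaks under DMSO and 4254 to 11141 under DNMT1i. The number of peaks in a list differed with treatment and line, and its part in the results below was not tested beyond the lists of equal length given there. A gene was counted as having an end peak when a peak lay within 1 kb of either of its ends, and a body peak when a peak overlapped the gene. Covered length is the number of peak bases from 1 kb before the gene to 1 kb after it. The table of genes gives no strand or exons, so exon, intron and UTR positions are not given here.

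The starts of 8 genes show the range of sequence on which these calls lie. Each is the RefSeq window from 250 bases before to 50 after an annotated start (GRCh38.p14), written 5′ to 3′ on the gene's strand, with every CG, the dinucleotide that DNMT1 methylates, in capitals. CG reads the same on both strands, and 98.0% of the 22199 promoter windows of protein-coding genes hold at least 1, with a median of 21 (quartiles 7 and 31). Windows were in the table for 43 of the 63 genes. The first 3 belong to genes with end peaks in most libraries: SOX6 (chr11:16738428-16738727, minus strand), TBX1 (chr22:19756453-19756752, plus strand) and ATOH8 (chr2:85753741-85754040, plus strand).
SOX6: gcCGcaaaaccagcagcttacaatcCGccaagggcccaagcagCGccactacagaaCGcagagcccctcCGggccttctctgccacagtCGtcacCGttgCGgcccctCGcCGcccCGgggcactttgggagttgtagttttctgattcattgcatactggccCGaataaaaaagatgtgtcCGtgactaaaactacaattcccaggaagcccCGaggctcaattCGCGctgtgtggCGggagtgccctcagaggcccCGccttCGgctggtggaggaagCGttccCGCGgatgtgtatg
TBX1: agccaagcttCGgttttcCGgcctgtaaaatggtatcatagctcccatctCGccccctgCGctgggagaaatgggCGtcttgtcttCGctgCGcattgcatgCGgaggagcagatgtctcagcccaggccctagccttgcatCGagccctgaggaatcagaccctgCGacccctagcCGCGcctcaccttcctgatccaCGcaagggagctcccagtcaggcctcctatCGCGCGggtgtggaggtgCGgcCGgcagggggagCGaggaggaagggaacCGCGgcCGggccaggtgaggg
ATOH8: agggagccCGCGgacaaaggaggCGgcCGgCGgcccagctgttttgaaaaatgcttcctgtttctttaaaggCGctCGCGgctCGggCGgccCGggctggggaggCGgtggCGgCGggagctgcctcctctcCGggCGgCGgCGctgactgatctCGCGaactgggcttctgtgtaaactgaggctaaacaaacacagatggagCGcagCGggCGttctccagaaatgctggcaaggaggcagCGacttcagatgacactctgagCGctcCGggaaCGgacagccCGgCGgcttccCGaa
The next 3 belong to genes with end peaks under DNMT1i and in no DMSO library: SOX21 (chr13:94712496-94712795, minus strand), ZIC5 (chr13:99971860-99972159, minus strand) and NEUROG1 (chr5:135535915-135536214, minus strand).
SOX21: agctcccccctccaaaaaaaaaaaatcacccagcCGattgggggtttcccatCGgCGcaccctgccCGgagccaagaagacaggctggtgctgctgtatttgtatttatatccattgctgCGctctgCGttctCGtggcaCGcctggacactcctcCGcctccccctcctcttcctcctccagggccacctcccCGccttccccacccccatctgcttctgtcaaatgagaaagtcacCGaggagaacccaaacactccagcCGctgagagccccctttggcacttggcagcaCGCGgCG
ZIC5: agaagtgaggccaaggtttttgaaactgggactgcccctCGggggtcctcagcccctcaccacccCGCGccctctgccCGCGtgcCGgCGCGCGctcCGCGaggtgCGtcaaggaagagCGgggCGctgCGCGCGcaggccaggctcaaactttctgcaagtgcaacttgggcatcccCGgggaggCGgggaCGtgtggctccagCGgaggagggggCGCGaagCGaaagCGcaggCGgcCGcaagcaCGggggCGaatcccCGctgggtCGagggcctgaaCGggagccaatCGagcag
NEUROG1: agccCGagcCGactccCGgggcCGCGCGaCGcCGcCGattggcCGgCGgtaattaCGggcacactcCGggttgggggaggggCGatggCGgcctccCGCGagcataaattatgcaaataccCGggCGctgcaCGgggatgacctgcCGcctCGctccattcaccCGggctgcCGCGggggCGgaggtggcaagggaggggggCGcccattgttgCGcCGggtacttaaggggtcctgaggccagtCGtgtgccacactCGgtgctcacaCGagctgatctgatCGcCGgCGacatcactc
The last 2 belong to genes with no peak in any of the 10 libraries: ASCL3 (chr11:8942967-8943266, minus strand) and ATOH1 (chr4:93828503-93828802, plus strand).
ASCL3: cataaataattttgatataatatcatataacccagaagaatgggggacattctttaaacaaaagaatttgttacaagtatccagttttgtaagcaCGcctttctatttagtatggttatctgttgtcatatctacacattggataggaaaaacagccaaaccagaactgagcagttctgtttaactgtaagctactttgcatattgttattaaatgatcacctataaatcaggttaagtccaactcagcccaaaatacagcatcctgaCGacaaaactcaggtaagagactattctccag
ATOH1: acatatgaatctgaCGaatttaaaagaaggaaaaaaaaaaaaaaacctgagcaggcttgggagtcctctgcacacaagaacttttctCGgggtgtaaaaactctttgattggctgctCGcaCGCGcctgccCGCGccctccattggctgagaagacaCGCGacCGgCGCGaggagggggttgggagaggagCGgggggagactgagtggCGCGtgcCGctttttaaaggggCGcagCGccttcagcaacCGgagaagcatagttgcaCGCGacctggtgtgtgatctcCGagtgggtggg

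SOX6 and TBX1 each hold 22 CG in the window and ATOH8 holds 30. A peak overlapped the SOX6 window in 9 libraries (5 DMSO and 4 DNMT1i), the ATOH8 window in 7 (5 and 2) and the TBX1 window in 6 (3 and 3). The gene C11orf58 lies within 2 kb of an end of SOX6, and GNB1L within 2 kb of an end of TBX1. Calls there may belong to either gene. Among the genes called only under DNMT1i, SOX21 holds 15 CG, ZIC5 33 and NEUROG1 35. Their windows carried peaks in 2, 3 and 3 DNMT1i libraries and in no DMSO library. ASCL3 holds 2 CG, fewer than most windows (94.0% hold at least that many). ATOH1, with no peak either, holds 22, as many as SOX6 and TBX1, so the number of CG in the window does not by itself separate the genes with and without peaks among these 8.

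Under DMSO the 63 genes had end peaks less often than protein-coding genes at large, and under DNMT1i more often in 4 of 5 libraries and about equally often in the fifth. In NTC, 25 of the 63 (39.7%) had an end peak under DMSO and 32 (50.8%) under DNMT1i, against 50.8% and 14.5% of all protein-coding genes. In UHRF1KO, 21 (33.3%) and 19 (30.2%) did, against 53.7% and 15.8% of all genes. In WT, 25 (39.7%) and 26 (41.3%) did, against 44.2% and 9.95%. The family genes thus had about as many end peaks under both treatments or more, while all genes had far fewer under DNMT1i in these lines. In RFTSdel, 16 (25.4%) and 15 (23.8%) had an end peak in the DMSO replicates, against 44.9% and 47.5% of all genes. Under DNMT1i both RFTSdel replicates had 26 (41.3%), against 29.1% and 41.2% of all genes. As a ratio to all genes, the share of the 63 ran from 0.50 to 0.90 under DMSO and from 1.00 to 4.15 under DNMT1i.

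**Figure D1:**
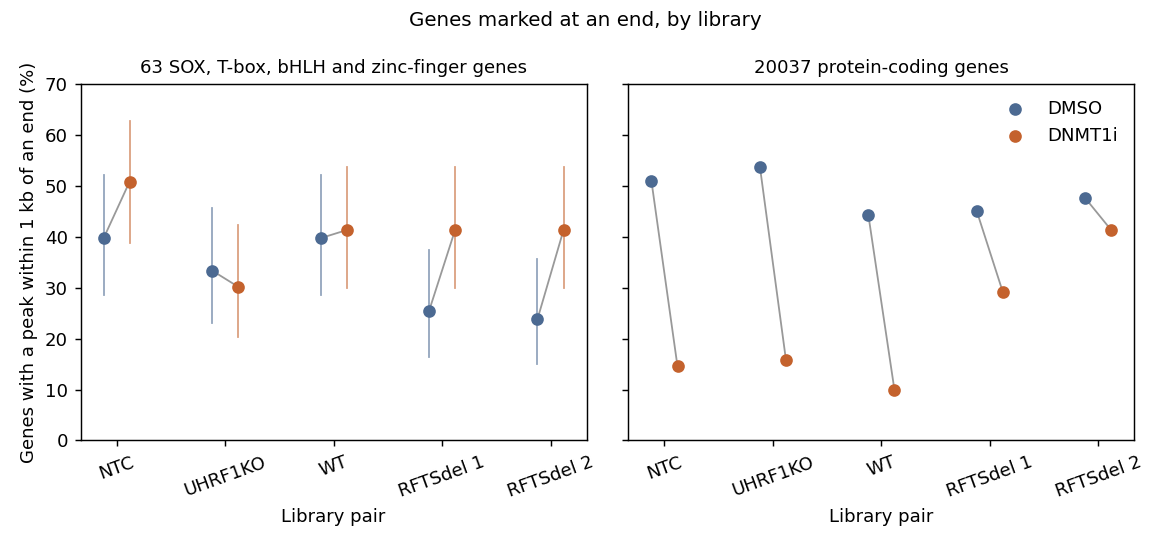
Percent of genes with a peak within 1 kb of an end, for the 63 family genes (left) and all 20037 protein-coding genes (right), in each DMSO (blue) and DNMT1i (orange) library, with a grey line joining each pair. Bars on the left are 95% Wilson intervals, which cover counting error only. The right-hand points are lower under DNMT1i in every pair, and the left-hand points are higher under DNMT1i in 4 of 5 pairs, with overlapping intervals.

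The mean share with an end peak was 32.4% ± 7.58 (SD, n = 5 libraries) under DMSO and 41.0% ± 7.31 (SD, n = 5) under DNMT1i. The paired difference was 8.57 ± 9.02 percentage points (SD, n = 5 pairs), about as large as its own spread. NTC showed 11.1 points, UHRF1KO −3.17, WT 1.59 and the RFTSdel pairs 15.9 and 17.5. For all protein-coding genes the difference was −26.1 ± 14.2 points (SD, n = 5), with each pair negative. Within batch 1 the difference for the 63 genes was 11.6 ± 8.74 points (SD, n = 3), and within batch 2 it was 3.97 ± 10.1 points (SD, n = 2). The sign for the 63 genes depended on the peak filter and the window. Once only peaks with −log10 q of 4 or more were used, the value was −6.98 points, and with peaks over the gene end itself −1.59. With −log10 q of 2 or more it was 3.17. With every list cut to its 4254 strongest peaks it was 19.4 points, against −2.67 for all genes.

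Body peaks were less frequent at the 63 genes than at all genes in each DMSO library, more frequent in 4 DNMT1i libraries, and less frequent in RFTSdel replicate 2 under DNMT1i (34.9%). Under DMSO, 26 of the 63 had a body peak in NTC. The count was 22 for UHRF1KO, 28 for WT, and 16 and 14 for the RFTSdel replicates, where 57.8%, 62.8%, 49.7%, 48.6% and 52.0% of all genes had one. Under DNMT1i the numbers were 36, 24, 34, 24 and 22, where 19.3%, 18.1%, 14.2%, 31.8% and 44.4% of all genes had one. The shares of the 63 averaged 33.7% ± 9.68 (SD, n = 5) and 44.4% ± 10.3 (SD, n = 5). These genes are short, with a median length of 6744 bp against 24115 bp, and 52 of them (82.5%) have both ends over 2 kb from another protein-coding gene, against 56.9% of all genes. A call at the others may belong to a neighbouring gene. Among genes under 10 kb, an alternative added after the data were seen, the difference in end peaks was 20.0 points for 37 family genes and −21.1 for all such genes.

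In every line more than 10 family genes had a call under DNMT1i alone, and in RFTSdel 1 or 2 had a call under DMSO alone. In NTC, 11 of the 63 had an end peak under DMSO only and 18 under DNMT1i only, against 42.8% and 6.45% of all genes. In UHRF1KO the numbers were 14 and 12, against 41.0% and 3.18%. In WT they were 18 and 19, against 39.6% and 5.38%. The near-equal totals in WT thus rest largely on different genes. The 7 genes with an end peak under both treatments were 28.0% of those with one under DMSO, against 10.4% for all genes. In RFTSdel 2 and 12 genes (replicate 1) and 1 and 12 genes (replicate 2) had a peak under DMSO only and DNMT1i only, against 20.2% and 4.38% and then 13.1% and 6.78% of all genes.

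**Figure D2:**
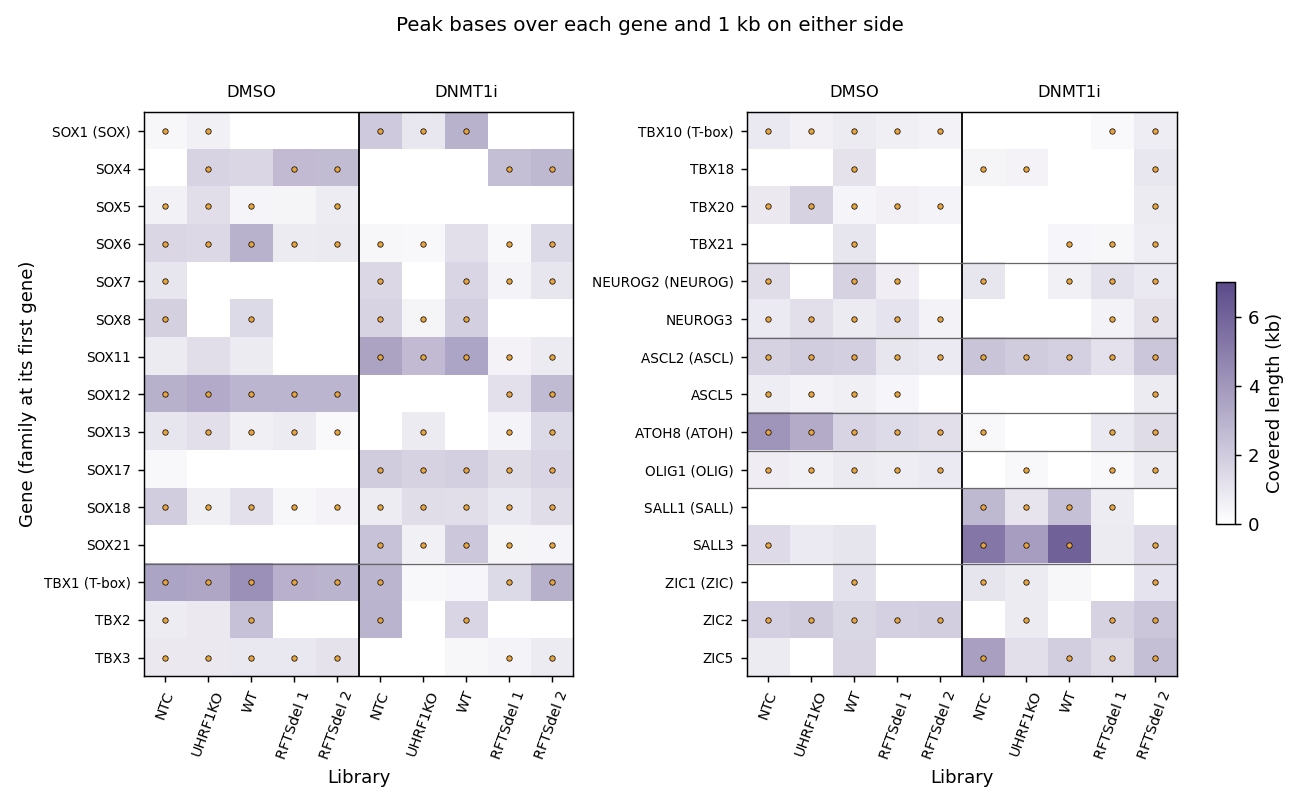
Covered length in kb (colour) of the 30 genes with an end peak in at least 4 libraries (rows, by family) in the 10 libraries (columns, DMSO left and DNMT1i right of the black line). A dot marks an end peak; dots on the right with none on the left stand at SOX11, SOX17, SOX21, SALL1 and ZIC5, and rows filled on the left and nearly empty in NTC, UHRF1KO and WT under DNMT1i at SOX12, NEUROG3, TBX3, TBX10 and TBX20.

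An end peak in no DMSO library and in at least 2 DNMT1i libraries was found at 16 of the 63 genes (25.4%), against 3.47% of all protein-coding genes. They include SOX11, SOX17 and SOX21 (all 5 DNMT1i libraries), ZIC5 and SALL1 (4), NEUROG1, SOX2, HAND2 and ATOH7 (3), and SALL4, SOX9, SOX3, SOX10, ASCL4 and NEUROD6 (2). The reverse, an end peak in at least 2 DMSO libraries and no DNMT1i library, held for 2 genes, SOX5 and OLIG2, against 12.9% of all genes. All 5 DMSO libraries had an end peak at 13 of the 63, against 32.9% of all genes. No library had one at 8 of the 63, against 31.4%.

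Covered length was compared within the 5 pairs with a two-sided exact permutation test that flips signs, adjusted by Benjamini-Hochberg over 15666 genes with peak bases, 56 of them family genes. With 5 pairs this test cannot go below 0.063, no gene passed an adjusted 0.05, and 0 genes had an unadjusted p under 0.05. Covered length was longer under DNMT1i in 5 of 5 pairs at 5 of the 56 (SALL3, SOX11, SOX17, SOX21 and ZIC5), against 1.08% of all genes tested. It was shorter in 5 of 5 pairs at 4 (OLIG1, SOX12, SOX5 and TBX3), against 34.7%. Without RFTSdel replicate 2 the shorter genes numbered 13, and in lists with −log10 q of 2 or more, or of equal length, the longer genes numbered 0. Each of these 9 had an exact p of 0.063 and an adjusted p of 0.175. Taking the 5 libraries per treatment as unpaired, an exact permutation test gave an adjusted p of 0.0402 for SOX17 and SOX21, longer under DNMT1i, where 0.421% of genes passed in that direction. The same test and adjusted p held for SOX12, SOX5 and TBX3, shorter under DNMT1i, where 19.3% passed. In this unpaired permutation test every gene that passed had the smallest p it gave, 0.0079. Their adjusted p is thus the same and does not rank these genes. The adjustment pooled both directions, with 3030 genes passing as shorter and 66 as longer. The adjusted p of SOX17 and SOX21 therefore rests mostly on genes that were shorter, and is not separate evidence of a gain. The unpaired test also set aside the pairing by line and counted the 2 RFTSdel libraries per treatment as separate. These libraries come from 4 lines and not from independent cultures of 1 line, so the p-values of both tests hold for these libraries only.

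SOX11, a SoxC factor of immature neurons, had 762, 1271 and 782 covered bases in the NTC, UHRF1KO and WT DMSO libraries and 0 in both RFTSdel DMSO libraries. Under DNMT1i it had 3543, 2642 and 3472 bases in those lines and 491 and 785 in RFTSdel. In DMSO the peaks lay inside the gene, and under DNMT1i a further peak lay at an end in each library. The groups overlap, since the RFTSdel DNMT1i values lie within the DMSO range, but each pair was longer under DNMT1i.

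SOX17, which specifies endoderm and arterial endothelium, had 300 covered bases in the NTC DMSO library and 0 in the other 4. Under DNMT1i it had 1995, 1722 and 1854 in NTC, UHRF1KO and WT, and 1344 and 1608 in RFTSdel. The groups do not overlap. SOX21, a SoxB2 factor that counters SOX2 in neural progenitors, had 0 covered bases in all 5 DMSO libraries. Under DNMT1i it had 2330, 580 and 2133 bases in NTC, UHRF1KO and WT, and 396 and 423 in RFTSdel. The UHRF1KO and RFTSdel values are below those of NTC and WT. In NTC and WT the SOX21 peak under DNMT1i ran over the start window printed above. In UHRF1KO and RFTSdel replicate 1 it lay inside the gene, and in RFTSdel replicate 2 outside it, beyond the end that holds the start.

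Other SOX genes had calls in some of the lines. SOX2, a pluripotency and neural progenitor factor, had 0 covered bases under DMSO and 1100, 647 and 568 in NTC, WT and RFTSdel replicate 2 under DNMT1i. SOX3, its relative on the X chromosome, had 2370 in NTC and 305 in RFTSdel replicate 1. SOX9, of cartilage and testis, had 1248 in NTC, 1440 in WT and 367 in RFTSdel replicate 1. SOX10, of neural crest, had 883 in NTC and 392 in WT, and POLR2F lies within 2 kb of its ends. None of these 4 SOX genes had a call in UHRF1KO under DNMT1i. SOX1, the third SoxB1 gene, had 334 and 592 bases in NTC and UHRF1KO under DMSO and 2066, 972 and 2975 in NTC, UHRF1KO and WT under DNMT1i.

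A further set of SOX genes had peaks mainly, or as often, under DMSO. SOX12, a SoxC gene expressed in many tissues, had 3004, 3260, 2862, 2833 and 2864 covered bases in NTC, UHRF1KO, WT and the RFTSdel replicates under DMSO. Under DNMT1i it had 0 in NTC, UHRF1KO and WT and 1182 and 2655 in RFTSdel. The groups do not overlap, and RFTSdel is the line with a call under DNMT1i. SOX4, a SoxC gene needed for B-cell development, had 0 bases in NTC, 1694 and 1559 bases in UHRF1KO and WT and 2630 and 2579 in RFTSdel under DMSO. Under DNMT1i SOX4 had 2463 and 2761 bases in RFTSdel and 0 elsewhere. SOX5, a long SoxD gene, had 384 to 1272 bases under DMSO and 0 in all DNMT1i libraries. SOX18, of blood and lymph vessels, was among the 2 genes with an end peak in all 10 libraries, with 324 to 1946 bases under DMSO and 733 to 1316 under DNMT1i. SOX6, also SoxD, had end peaks in 9 libraries and SOX13 in 8.

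**Figure D3:**
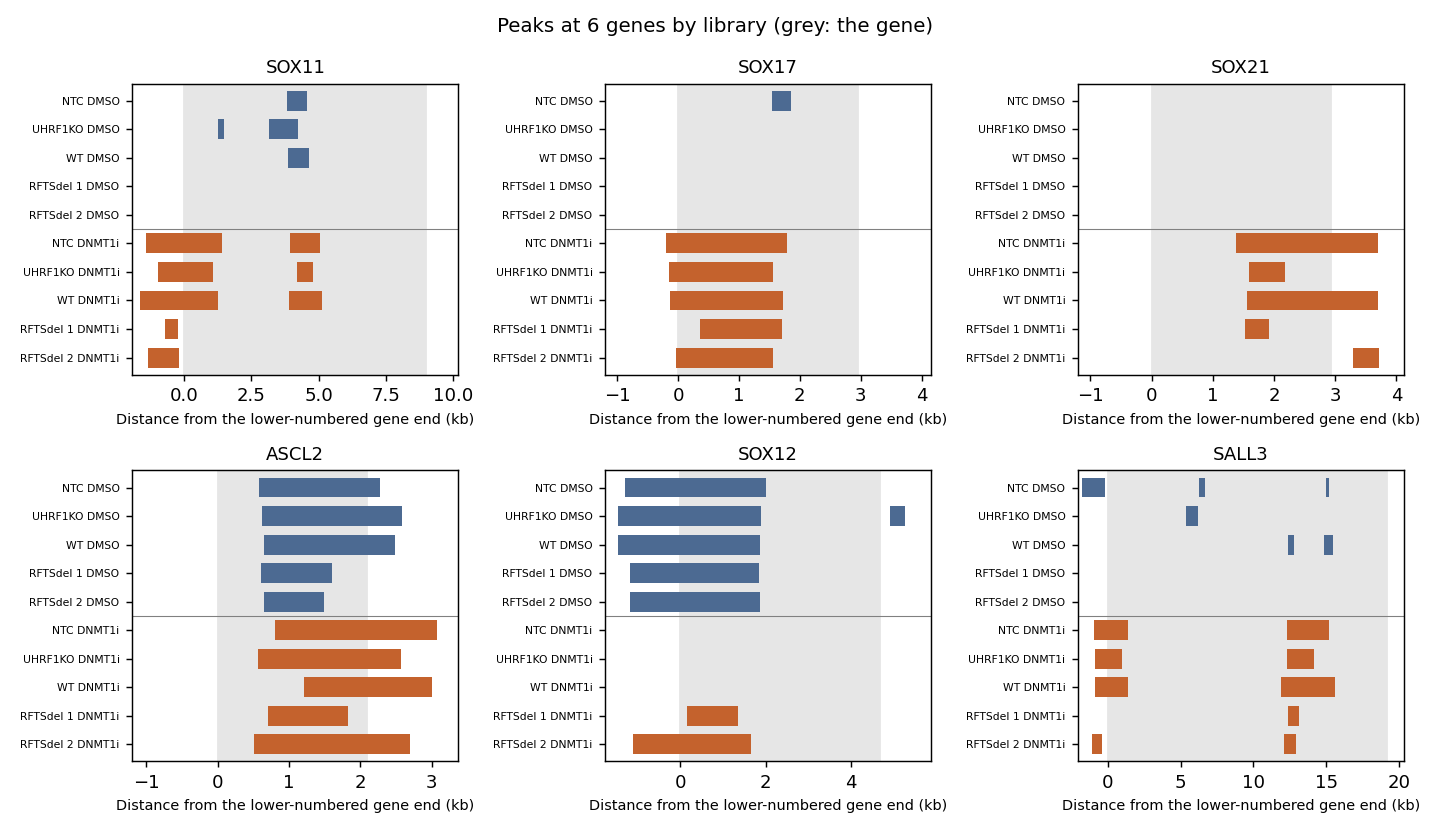
Peaks of each library at 6 genes (blue DMSO, orange DNMT1i), drawn in kb from the lower-numbered end of the gene, with the gene in grey. SOX11, SOX17, SOX21 and SALL3 have a greater covered length in the orange than in the blue row of each pair, though single peaks need not be longer. ASCL2 has peaks at one place in all 10 rows, and SOX12 has orange peaks in the RFTSdel rows only.

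Over the whole SOX family, 6.8 ± 1.48 of 19 genes had an end peak under DMSO and 10.2 ± 1.48 under DNMT1i (SD, n = 5 libraries), more in 5 of 5 pairs. These are 35.8% and 53.7%, against 48.2% and 22.1% of all protein-coding genes. All 19 had an end peak in at least 1 library, where 31.4% of all genes had one in none. SALL genes, zinc-finger repressors of limb, kidney and stem cells, showed the same direction, again with more in 5 of 5 pairs. They had 0.2 ± 0.447 of 4 (5.0%) under DMSO and 2.0 ± 0.707 (50.0%) under DNMT1i. SALL3 had 1401, 847 and 1044 covered bases in NTC, UHRF1KO and WT under DMSO and 5229, 3749 and 6049 under DNMT1i, the last being the longest coverage of any of the 63 genes in any library. In RFTSdel SALL3 had 0 bases under DMSO and 765 and 1411 under DNMT1i. SALL1 had 0 bases under DMSO and 2710, 1033, 2425, 725 and 0 under DNMT1i. SALL4, a stem cell factor, had 547 and 906 bases away from its ends in NTC and WT under DMSO, and an end peak in NTC and RFTSdel replicate 1 under DNMT1i. SALL2 had no peak in any library.

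T-box genes had the opposite mean direction, which is also that of all protein-coding genes (48.2% under DMSO and 22.1% under DNMT1i). Of 13, 5.0 ± 1.41 had an end peak under DMSO and 3.4 ± 1.95 under DNMT1i (SD, n = 5), or 38.5% and 26.2%. There were fewer in 3 of 5 pairs, more in 1 and as many in 1. TBX1, a regulator of the pharyngeal arches, had 3511, 3408, 4233, 3009 and 2873 covered bases in NTC, UHRF1KO, WT and the RFTSdel replicates under DMSO. Under DNMT1i TBX1 had 2864, 275, 360, 1449 and 2997. TBX3, of limb and mammary gland, had 851 to 1100 bases under DMSO, 0 in NTC and UHRF1KO, 313 in WT, and 455 and 788 in RFTSdel under DNMT1i. TBX20, a cardiac factor, kept an end peak only in RFTSdel replicate 2, with 747 bases. TBX10 kept one in both RFTSdel replicates, with 268 and 701. The TBX10 end peaks all lay outside the gene. ACY3 and NUDT8 lie within 2 kb of the ends of TBX10, so these calls may belong to a neighbouring gene.

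Among T-box genes, TBX5, TBX6, TBX15, TBX19 and TBX22 had no end peak in any library (5 of 13), against 31.4% of all protein-coding genes. TBX15 had body peaks in NTC and WT under DNMT1i (1023 and 660 bases). TBX6, of the presomitic mesoderm, is a case of its own: a parental peak at chr16:30091837-30092128 lay at its end, with a deposited fold of 5.18 and −log10 q of 9.57, so its peaks were removed. Before that removal it had an end peak in 9 of 10 libraries. It is 1 of the 63 with a parental end peak, against 2.42% of all genes. TBX21, the T-bet gene of T and NK cells, had 989 bases in WT under DMSO and 382, 313 and 710 in WT and the RFTSdel replicates under DNMT1i.

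The bHLH families had similar numbers under both treatments, with 6.6 ± 1.82 of 20 genes under DMSO and 7.4 ± 1.52 under DNMT1i (SD, n = 5), but partly different genes made up the totals. ASCL2, of trophoblast and intestinal stem cells, had an end peak in all 10 libraries. Its covered length was 1700, 1962, 1844, 991 and 841 bases under DMSO and 2272, 2009, 1786, 1129 and 2184 under DNMT1i, so the groups overlap. ASCL5 had an end peak in 4 DMSO libraries and, under DNMT1i, in RFTSdel replicate 2 alone. ASCL4 had 443 and 462 bases in UHRF1KO and WT under DNMT1i, and ASCL3 none in any library.

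The 3 neurogenins, which start neuronal differentiation, had 3 patterns. NEUROG1 had 0 bases under DMSO and 1141, 1049 and 980 in NTC, UHRF1KO and WT under DNMT1i, with 0 in RFTSdel. NEUROG3, of the endocrine pancreas, was nearly the reverse: 833, 1256, 781, 1088 and 495 bases under DMSO, and under DNMT1i 503 and 1103 in RFTSdel and 0 in the other lines. NEUROG2 had end peaks in NTC, WT and RFTSdel replicate 1 under DMSO and in every DNMT1i library but UHRF1KO. The NEUROD genes, which act later in neurons, had end peaks at 0.4 ± 0.548 of 4 under DMSO and 0.8 ± 0.447 under DNMT1i. These are 10.0% and 20.0%, against 48.2% and 22.1% of all genes. NEUROD2 had 450 and 1253 bases in NTC and WT under DMSO and 648 and 1300 in WT and RFTSdel replicate 1 under DNMT1i. NEUROD6 had 283 in NTC and 472 in WT under DNMT1i.

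ATOH8, the atonal relative with the most peak bases, had 4081, 3239, 1661, 1393 and 1213 covered bases under DMSO and 295, 0, 0, 902 and 1348 under DNMT1i. ATOH7, of retinal ganglion cells, had 315, 335 and 297 bases in NTC, WT and RFTSdel replicate 1 under DNMT1i and 0 under DMSO. ATOH1, of cerebellar granule and hair cells, had no peak. HAND2, of heart and limb, had 672, 674 and 826 bases in NTC, UHRF1KO and WT under DNMT1i alone. HAND1 had peaks in WT only, with 959 bases under DMSO and 1330 under DNMT1i. OLIG1, of the oligodendrocyte lineage, had 597 to 835 bases under DMSO and 0, 285, 0, 297 and 735 under DNMT1i. OLIG2 had end peaks in UHRF1KO and WT under DMSO, and in 4 DNMT1i libraries body peaks of 252 to 799 bases that did not reach an end window. OLIG genes were the other family with fewer end peaks under DNMT1i, 1.6 ± 0.548 of 3 and then 0.8 ± 0.447 (53.3% and 26.7%), fewer in 3 pairs and equal in the other 2. That is also the direction of all genes (48.2% and 22.1%).

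ZIC genes, zinc-finger factors of the neural tube, had end peaks at 1.6 ± 0.548 of 5 under DMSO and 2.4 ± 0.548 under DNMT1i. These are 32.0% and 48.0%, against 48.2% and 22.1% of all genes, with more in 3 pairs and equal in 2. ZIC5 and ZIC2 lie 9.9 kb apart on chromosome 13 and differed. ZIC2 had 1779, 1984, 1541, 1783 and 1912 bases under DMSO and 0, 756, 0, 1722 and 2214 under DNMT1i. ZIC5 had 743 and 1637 bases in NTC and WT under DMSO, away from its ends, and 3697, 1211, 1899, 1364 and 2488 under DNMT1i. So within 1 locus the NTC and WT lists had end peaks at ZIC2 under DMSO and at ZIC5 under DNMT1i, while both RFTSdel lists under DNMT1i had both. ZIC4 and ZIC1 lie 2.8 kb apart on chromosome 3, and no peak reached the windows of both. FEZF1, of the forebrain and olfactory system, had 2027, 1308 and 2160 bases in NTC, UHRF1KO and WT under DNMT1i and 0 in the other libraries. FEZF2, of deep-layer cortical neurons, had 213 bases in UHRF1KO under DMSO and 819 in NTC under DNMT1i.

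The lines differed in which family genes had end peaks under DNMT1i. Of the 13 genes with an end peak in all 5 DMSO libraries, the DNMT1i lists of NTC, UHRF1KO and WT held end peaks at 5, 6 and 2, where 11.8%, 30.2% and 3.37% of all such genes had one. In the RFTSdel replicates 12 and 13 did, where 63.4% and 82.8% of all such genes did. Of the 27 with an end peak in no DMSO library, 15 had one in NTC, 8 in UHRF1KO and 15 in WT under DNMT1i, where 10.8%, 3.72% and 9.34% of such genes did. In RFTSdel 9 and 5 did, where 2.78% and 5.19% did. The RFTSdel DNMT1i lists thus held most of the calls shared by the DMSO lists, which was also so for all genes. Of the calls found only under DNMT1i they held fewer than NTC and WT. These RFTSdel lists were also longer, with 7561 and 11141 peaks against 5844 in NTC, 4642 in UHRF1KO and 4254 in WT. The part of list length in these counts was not tested.

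RFTSdel was set against WT to ask what the RFTS domain contributes. Under DMSO, 1 gene, SOX4, had an end peak in both RFTSdel replicates and not in WT, against 8.21% of all genes. In turn, 9 had one in WT and neither RFTSdel replicate, against 6.5%: HAND1, NEUROD2, OLIG2, SOX30, SOX8, TBX18, TBX2, TBX21 and ZIC1. Under DNMT1i, 11 had one in both RFTSdel replicates and not in WT, against 23.4%, and 10 of these 11 were among the 13 called in all DMSO libraries. In turn, 13 had one in WT and neither RFTSdel replicate, against 4.14%. With NTC, which is of the other batch, added to WT, 9 genes had end peaks in both and in neither RFTSdel replicate under DNMT1i, against 3.03%, among them HAND2, NEUROD6, NEUROG1, SOX1, SOX10, SOX8 and TBX2. The opposite held for 8 genes, against 20.5%: NEUROG3, OLIG1, SOX12, SOX13, SOX4, TBX10, TBX3 and ZIC2. WT and NTC are 1 library each per treatment, so the difference between lines was not tested.

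UHRF1KO was set against NTC to ask what UHRF1 contributes. Under DMSO 5 genes had an end peak in UHRF1KO and not NTC, against 8.33% of all genes, and 9 the reverse, against 5.52%. Under DNMT1i 5 genes (ASCL4, NEUROD1, OLIG1, SOX13 and ZIC2) had one in UHRF1KO and not NTC, against 9.34%, and 18 the reverse, against 8.09%. The 18 include SOX2, SOX3, SOX9, SOX10 and ATOH7. In both lists 14 genes (22.2%) were called, against 6.46% of all genes. In the share of the 63 with an end peak, UHRF1KO minus NTC was −20.6 points under DNMT1i and −6.35 under DMSO. With 1 library in each group there is no test, and the UHRF1KO list under DNMT1i is also the shorter of the pair. In lists of equal length UHRF1KO minus NTC was −19.0 points under DNMT1i and −4.76 under DMSO. Of all genes, 15.8% had an end peak in UHRF1KO under DNMT1i and 14.5% in NTC. The part of list length was not tested further.

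Peaks at these genes had a median width above the list's own median in every library. Under DNMT1i it was 1066 bp against 630 bp in NTC and 980 bp against 639 bp in WT. A wide peak reaches a gene window more often than a narrow peak, and peaks picked in the same way at all genes were not compared. The widths therefore do not show a trait of these genes. The authors' median −log10 q for the peaks at these genes was 1.71 to 2.07 in the NTC, UHRF1KO and WT DMSO lists, 4.97 and 6.50 in the RFTSdel DMSO lists, and 1.91 to 2.30 in the 5 DNMT1i lists. This was above the median of the whole list in both RFTSdel DMSO lists (4.36 and 4.31) and in NTC and WT under DNMT1i (2.10 and 2.14), and below it in the other 6. At −log10 q of at least 4 no gene had end peaks in at least 2 DNMT1i libraries and no DMSO library, where 16 did before, and at a minimum of 2 there were 13. Of all protein-coding genes 0.584% met that rule at a minimum of 4 and 3.95% at 2, against 3.47% with no minimum.

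Partners and repressors of these factors were counted in the same way, beside a mean share over all protein-coding genes of 48.2% under DMSO and 22.1% under DNMT1i. The E proteins TCF3, TCF4 and TCF12, with which bHLH factors pair, had end peaks at 2.0 of 3 genes on average under DMSO and 1.0 under DNMT1i (66.7% and 33.3%). The ID, HES and HEY genes, which oppose proneural bHLH factors, had 11.6 ± 0.548 of 14 under DMSO and 7.4 ± 4.98 under DNMT1i (SD, n = 5; 82.9% and 52.9%), fewer in 3 pairs, equal in 1 and more in 1. Genes of Polycomb and REST complexes had 15.2 ± 0.447 of 17 and 8.0 ± 6.82 (89.4% and 47.1%), with 2, 7 and 1 in NTC, UHRF1KO and WT and 14 and 16 in RFTSdel under DNMT1i. Relatives of the 63 outside the naming rule, such as TBXT, TWIST1 and PTF1A, had 10.4 ± 4.04 of 29 and 11.4 ± 3.21, fewer in the NTC, UHRF1KO and WT pairs and more in the RFTSdel pairs (6 to 11 and 7 to 16). Of these 29 genes, 10 had end peaks in more DNMT1i than DMSO libraries, 8 in fewer and 11 in as many. BHLHE23 had them in 1 DMSO and 5 DNMT1i libraries and PTF1A in 1 and 4, while MGA, TAL1 and MESP1 had them in 5 and 2.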

How the data were processed

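Anti-GFP ChIP-seq peak lists of 10 GFP-DNMT1 libraries and 1 parental library were used; of the 13 samples, the 2 inputs were not analysed here. Per the submitters' processing notes, the authors used cutadapt, BWA, Picard, MACS2 and deepTools with GRCh38; the sources used here give no versions, settings or control for peak calling. Each deposited file is a list of broad peaks called in 1 library, not on pooled replicates. In the deposited fold column, each value is a ratio of a peak's signal to its background from the authors' caller. The deposited −log10 columns hold −log10 p and −log10 q. The deposited score column equals 10 times −log10 q rounded down in nearly all peaks. The lists hold no counts, so depth is unknown and Wilson intervals (95%) cover counting error only.

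Only the 22 autosomes, X and Y were used, and peaks overlapping a parental peak by 1 bp or more were removed. Gene ends came from RefSeq (GRCh38.p14, 20037 protein-coding genes). Python 3.11.15, numpy 2.4.6 and pandas 2.3.3 were used, and the overlap and test code returned known answers on simulated peaks. Batches follow the sample labels, which the series' design text numbers the other way. Pairs were NTC, UHRF1KO, WT and the 2 RFTSdel replicates by number. Covered length was tested by an exact sign-flip permutation over 5 pairs, with Benjamini-Hochberg adjustment over 15666 genes. Shares over the 63 genes were given no p-value. Genes named are the 12 with end peaks in most libraries (ties by summed covered length), all with end peaks in at least 2 DNMT1i and no DMSO library, the 6 with an end peak under DMSO only in most pairs (the same ties rule), the 6 with body but no end peaks in most libraries, the longest-covered of each family and those with no peak; others named were chosen after their values were seen. The genes and lists were chosen with earlier results of these data known. Alternatives varied the peak filter, the window, the background and the libraries. Values of some of the genes are not reported here.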

Additional observations from a re-analysis of the deposited data

Results flagged for a closer look

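The change in the share of the 63 genes with an end peak (DNMT1i minus DMSO) had opposite signs between lines. It was −3.17 percentage points in UHRF1KO and 11.1 in NTC, 1.59 in WT and a mean of 16.7 in RFTSdel, where both replicates were positive. The differences between UHRF1KO and each of the other lines were not tested, since UHRF1KO, NTC and WT have 1 library per treatment, and WT and RFTSdel are of the other batch. In UHRF1KO the 95% Wilson intervals of the DMSO and DNMT1i shares were 22.9% to 45.6% and 20.2% to 42.4%, which cover counting error only.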

How the results depend on the processing

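Lists with no read counts limit every value here, and the direction of the main one changed with the peak filter and the window. With peaks of −log10 q of at least 4, the mean share of the 63 genes with an end peak was 10.2% under DMSO and 3.17% under DNMT1i, the difference −6.98 points, and the excess over all genes under DNMT1i −0.70 points. The body shares were then 10.2% and 2.54%, the genes with covered length longer or shorter in every pair 0 and 1, and those with end peaks in no DMSO and at least 2 DNMT1i libraries 0. UHRF1KO minus NTC was 4.76 points under DMSO and −3.17 under DNMT1i, and RFTSdel minus WT under DMSO was 12.7. At a minimum of 2 the shares were 22.5% and 25.7% (bodies 21.3% and 27.6%), no gene was longer in every pair (0), UHRF1KO minus NTC under DMSO was 1.59 and NEUROG2 had −1 more libraries under DNMT1i than DMSO. In lists of equal length the shares were 10.2% and 29.5% (bodies 10.2% and 33.7%), the gap to all genes under DMSO −6.70 points, the difference 19.4, RFTSdel minus WT under DNMT1i −26.2, and 0 genes were longer and 0 shorter in every pair. TBX1, ATOH8 and SOX13 then had 1, 2 and 1 more libraries under DNMT1i. With peaks over the end itself the shares were 22.2% and 20.6%, the difference −1.59, 8 genes had end peaks in no DMSO and at least 2 DNMT1i libraries, and NEUROG2 had −3. With starts alone that count was 9. OLIG2 had 2 more libraries under DNMT1i in the 3 kb window. Among genes under 10 kb, added after seeing the data, the difference was 20.0. The cause of these shifts was not tested.

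Leaving out 1 pair at a time, the difference ran from 6.35 to 11.5 points. Without an RFTSdel replicate, 5 to 6 genes were longer and 4 to 13 shorter in every pair, the 13 without RFTSdel replicate 2. With no replicate block the difference was 6.55 points, and 2 genes were longer and 3 shorter at an adjusted p under 0.05 in the exact permutation test. The replicate numbers of RFTSdel pair only by number: the deviations of same-numbered libraries correlated at 0.11. Keeping parental peaks and using ends away from other genes moved no value past its spread. Of 307 values for 37 named genes, 250 kept their direction, 6 turned and 51 became or left 0. The comparison with promoters of like CpG content was not run, since windows were in the table for 68.3% of the 63 genes, too few for it.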
